A study of Mus musculus with 7 samples.

Results

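The VEGF and angiopoietin genes of cultured mouse podocytes were examined by DNase-Seq, a method in which DNaseI cuts DNA that is not wrapped in nucleosomes, so that sequenced fragments accumulate at accessible sites. The group holds 10 genes, chosen by name: the secreted ligands *Vegfa*, *Vegfb*, *Vegfc*, *Angpt1*, *Angpt2* and *Angptl4*, and the receptors *Flt1*, *Kdr*, *Nrp1* and *Nrp2*. Peaks were assigned to a gene where they overlapped 500 nt on either side of a protein-coding transcription start site (TSS), or the gene body. The 10 genes have 17 of the 54361 TSSs annotated for 21853 protein-coding genes (GENCODE vM21, GRCm38), and all 10 had a promoter peak in every condition, as did 21835 of all genes. The cells were a conditionally immortalized mouse podocyte line that carries a thermosensitive T antigen and was differentiated without interferon-γ. After serum deprivation they spent 36 h either at 5 mM glucose (NG) or at 25 mM glucose after transfection with 50 nM of a mimic, which was nontargeting in HG+NT and miR-93 in HG+miR-93. Each condition had 2 biological replicates, and 1 sample of genomic DNA from the line, digested with less DNaseI, served as input. NG cells served as the control without a mimic in the labels, so glucose and transfection cannot be told apart between HG+NT and NG.

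Podocytes are epithelial cells that wrap the capillaries of the kidney's filter, and they are a main source of VEGF-A for the glomerular endothelium. VEGF-A signals through the receptor tyrosine kinase KDR, whereas FLT1 binds it tightly and acts in part as a decoy, and the neuropilins NRP1 and NRP2 serve as co-receptors that also bind semaphorins. Angiopoietin 1 activates the endothelial receptor TEK and stabilizes vessels, and angiopoietin 2 counteracts it in many settings. *Vegfa* is a known target of miR-93, so its promoter addresses whether the mimic and high glucose go along with a change of chromatin at the gene itself.

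miR-93 binds mRNAs chiefly through its seed, bases 2 to 8, shown in capitals in the mature RefSeq sequence. The seed's 7-base complement GCACTTT was searched in the longest 3′-UTR of each gene, and the matches found in the group follow with 23 bases each and the match in capitals (GRCm38.p6).
mmu-miR-93-5p: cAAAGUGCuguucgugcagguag
Vegfa, chr17:46018688-46018710, minus strand: agactcttcgaggaGCACTTTgg
Nrp2, chr1:62796046-62796068, plus strand: gttgcctcgattttGCACTTTtt
Nrp2, chr1:62798131-62798153, plus strand: catggcgtcacggaGCACTTTtt
*Vegfa* held 1 match in 1868 nt and *Nrp2* 2 matches in 3328 nt, whereas the other 8 genes held none. Both *Nrp2* matches lie before the annotated end of the gene at chr1:62818695, and whether its other transcripts hold them was not checked. Over 21654 genes with a 3′-UTR, 11.4% held at least 1 match, at 0.0930 matches per kb. A match is a stretch of letters and not a measured binding site.

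RefSeq promoters, 250 bases before to 50 bases after a start, were found for 7 of the 10 genes, and not for *Angpt1*, *Angpt2* and *Angptl4*. All 7 were richer in G and C than the median promoter, at 60.7% to 75.3% against 52.7% over 32851 promoters, and all 7 held more CpGs than the median of 7.0. Every one of the 7 held the GC box GGGCGG on either strand, which 35.7% of all promoters hold. *Nrp2* held 5 copies, *Vegfb* 4, *Flt1* 3, *Vegfa*, *Vegfc* and *Kdr* 2 each and *Nrp1* 1. The bases upstream of the first annotated exon are printed for *Vegfa*, the target of interest, for its receptors *Flt1* and *Kdr*, and for *Nrp2*, which held the most copies, 4 of them in the part printed, with GGGCGG or its complement CCGCCC in capitals (GRCm38.p6, 5′ to 3′ on the gene's strand).
Vegfa, chr17:46032378-46032627, minus strand: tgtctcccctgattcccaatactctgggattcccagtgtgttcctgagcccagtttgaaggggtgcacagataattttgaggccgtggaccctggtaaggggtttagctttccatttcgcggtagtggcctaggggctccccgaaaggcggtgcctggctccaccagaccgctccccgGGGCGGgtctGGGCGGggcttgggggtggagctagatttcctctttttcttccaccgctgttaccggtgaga
Flt1, chr5:147726012-147726261, minus strand: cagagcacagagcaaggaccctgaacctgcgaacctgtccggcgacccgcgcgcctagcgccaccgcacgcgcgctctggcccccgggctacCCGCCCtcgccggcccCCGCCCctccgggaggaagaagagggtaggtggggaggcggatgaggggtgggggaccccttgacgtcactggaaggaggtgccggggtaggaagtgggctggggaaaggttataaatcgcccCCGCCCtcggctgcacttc
Kdr, chr5:75978459-75978705, minus strand: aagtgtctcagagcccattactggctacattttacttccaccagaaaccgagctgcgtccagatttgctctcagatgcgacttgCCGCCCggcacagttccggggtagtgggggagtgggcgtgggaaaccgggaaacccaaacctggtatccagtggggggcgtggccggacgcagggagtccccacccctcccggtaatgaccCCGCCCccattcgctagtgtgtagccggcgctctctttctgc
Nrp2, chr1:62703067-62703284, plus strand: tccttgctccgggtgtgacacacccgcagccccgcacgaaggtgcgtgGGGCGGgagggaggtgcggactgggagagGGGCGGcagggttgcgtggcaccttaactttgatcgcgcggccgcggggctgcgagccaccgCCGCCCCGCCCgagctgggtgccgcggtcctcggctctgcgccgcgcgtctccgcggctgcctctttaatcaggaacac
The core of the hypoxia response element, searched as ACGTG, was in none of the 7 promoters and in 19.6% of all. Its variant GCGTG was in 5 of the 7 and in 32.4% of all. The AP-1 motif TGANTCA and the ETS motif CCGGAAG were in none of the 7, against 7.81% and 8.86% of all promoters. The CCAAT box was in 1, *Vegfa*, against 37.4% of all. Each motif was searched on both strands and counted by itself, so that overlapping copies count separately and a base can belong to more than 1 motif, and no match says only that the letters are not in this window.

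The deposited data are 1 list of MACS2 peaks per condition, named as joint over the replicates, with 1036304 peaks in NG, 846027 in HG+NT and 900109 under HG+miR-93. No value of a single replicate was analysed here, so the spread between replicates is unknown and the conditions were compared by size alone, without a test or p-value. The fragments at each summit and the local mean of the input were solved from the listed fold over input and p, which gave 1 solution for at least 99.9986% of peaks in each list. Pileup below is the number of fragments at the summit after scaling to the input's depth. Its interval is the 95% exact Poisson interval, and it covers counting error alone. A pileup is an average over cells, so fewer cells with an open site and a less open site in each cell cannot be told apart. The depth relative to the input was 2.24 in NG, 3.85 in HG+NT and 5.15 under HG+miR-93, so the NG values rest on the fewest fragments. The −log10 q was 0 at the promoter peak of all 10 genes in all 3 lists.

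The lists also differed by chromosome. Promoters on chromosomes 8, 15 and 19 had a median pileup ratio of HG+NT to NG of 1.08, 1.14 and 1.06, whereas the medians of the 16 other autosomes lay between 0.831 and 0.945, and those of chromosomes X and Y were 1.05 and 0.332. These chromosomes carry 5 of the 10 genes: *Vegfc*, *Angpt2* and *Nrp1* lie on 8, *Angpt1* on 15 and *Vegfb* on 19. Between HG+miR-93 and HG+NT all autosomes had medians between 0.935 and 0.975. The part of this difference in the results was not tested, and most ratios below are given beside the median of the gene's chromosome.

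The promoters of the group had pileups at about the level of an average gene. Pileup is not divided by the input, so it does not by itself show an accessible site. At the peaks of highest pileup the lowest fold over input was 1.03, for *Angptl4* in HG+NT. The group's median pileup was 6.25 in NG, 5.97 in HG+NT and 5.93 under HG+miR-93, against 5.81, 4.93 and 4.86 over 21834 genes. Promoters of 1134 olfactory receptor genes, which are silent in most tissues, had medians of 3.13, 2.60 and 2.53, and all 10 genes lay above these in every list. So did most genes, as only 4148, 2533 and 2506 of the 21834 lay at or below them. Promoters of 6 housekeeping genes had medians of 11.2, 9.22 and 7.0. Of the cell type lists, 14 podocyte genes had medians of 5.81, 5.19 and 5.54 and 12 endothelial genes 4.47, 4.15 and 4.66, while 6 leukocyte genes had 2.90, 3.77 and 4.28. The lists of 6 mesangial and 6 tubule genes lay near the podocyte list, with 5.36, 5.45 and 4.76 and with 5.36, 4.80 and 5.25. Among the podocyte genes *Actn4* and *Foxc2* had 10.7 and 9.83 in NG, whereas *Nphs1*, which encodes the slit diaphragm protein nephrin, had 4.02. *Pecam1* and *Cdh5*, markers of endothelial cells, had 4.02 and 5.81 in NG. The podocyte genes thus had a higher median than the endothelial genes in every condition, while single genes of both had similar levels. In HG+NT the mesangial median was above that of the podocyte genes, so the levels do not single out podocyte genes.

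**Figure D1:**
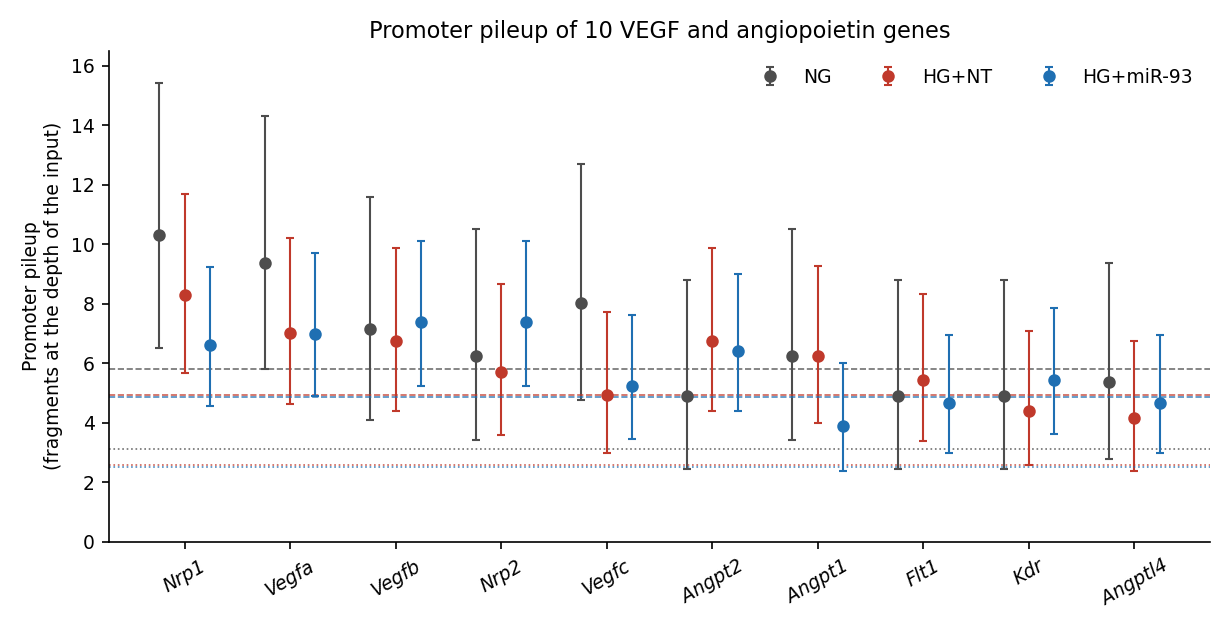
Promoter pileup (fragments scaled to the input) of the 10 genes, ordered by their mean, as points per condition with 95% exact Poisson intervals; dashed lines are the medians of all genes and dotted lines those of olfactory receptor genes in the same colour. *Nrp1* is highest on average at 8.40 and *Angptl4* lowest at 4.73, and the intervals of all genes overlap within each condition.

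Among the ligands, *Vegfa* (ENSMUSG00000023951, chr17:46016993-46032369, minus strand, 4 TSSs) had a pileup of 9.38 in NG (21 fragments, 5.81 to 14.3), 7.01 in HG+NT (27 fragments, 4.62 to 10.2) and 7.0 under HG+miR-93 (36 fragments, 4.90 to 9.69). NG was the highest and all intervals overlapped, but the HG+miR-93 value came from another site than the others. The pileup ratio was 0.748 for HG+NT to NG (0.407 to 1.39), 0.998 for HG+miR-93 to HG+NT (0.589 to 1.71) and 0.746 for HG+miR-93 to NG (0.424 to 1.34), against medians of 0.850, 0.943 and 0.798 on chromosome 17. The summit lay 28 nt upstream of the first TSS in NG, inside the sequence printed above, and 58 nt downstream in HG+NT. In HG+miR-93 it lay in an intron, 1398 nt downstream of the gene's start and 385 nt past another TSS. At the first TSS the miR-93 list held a lower peak, 52 nt upstream, with a pileup of 5.25 (27 fragments, 3.46 to 7.63). The input mean there was 8.0 and the fold over input 0.694, so this peak lay below the input. Compared there, chosen after the data were seen, the values descended, with a ratio of 0.748 between the HG lists (0.422 to 1.33) and of 0.559 for HG+miR-93 to NG (0.305 to 1.04), the latter past 1.5 times lower. The input was high at the first site, with a local mean of 6.20 in NG and 6.0 in HG+NT against a background of 1.43, and 2.70 at the HG+miR-93 summit. The fold over input was 1.44, 1.14 and 2.16, at percentiles 19.2, 11.0 and 80.1 of all genes, so the percentile of *Vegfa* by fold was 69.1 points higher with the miR-93 mimic than with the nontargeting one, while its highest pileups differed by less than counting error.

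*Vegfb*, which encodes a ligand of FLT1, had the narrowest range of the group, with pileups of 7.15, 6.75 and 7.38 in the NG, HG+NT and HG+miR-93 lists. Its ratios were 0.945 for HG+NT to NG (0.488 to 1.89) and 1.09 for HG+miR-93 to HG+NT (0.647 to 1.88), against medians of 1.06 and 0.944 on chromosome 19.

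*Vegfc*, which encodes a growth factor of lymphatic vessels, had a pileup of 8.04 under NG (4.76 to 12.7), 4.93 under HG+NT (2.97 to 7.71) and 5.25 under HG+miR-93 (3.46 to 7.63). NG was the highest and both HG lists were lower, with overlapping intervals. The ratio of HG+NT to NG was 0.614 (0.305 to 1.24) against a median of 1.08 on chromosome 8, which placed *Vegfc* at percentile 1.88 of the promoters there. By fold it stood at percentile 44.8 under NG, 13.6 under HG+NT and 34.7 under HG+miR-93.

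*Angpt1*, the gene of the TEK agonist, had 6.25 under NG (3.42 to 10.5), 6.23 under HG+NT (3.99 to 9.27) and 3.89 under HG+miR-93 (2.37 to 6.0). Only HG+miR-93 was lower, and its interval overlapped the others. The ratio of HG+miR-93 to HG+NT was 0.624 (0.327 to 1.18) against a median of 0.962 on chromosome 15, percentile 1.66 of the promoters there. The summits lay 541, 625 and 757 nt downstream of the TSS, all in exons, and were the closest of the group with a span of 216 bp.

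*Angpt2*, the gene of its antagonist, had 4.91 under NG (2.45 to 8.79), 6.75 under HG+NT (4.41 to 9.89) and 6.41 under HG+miR-93 (4.41 to 9.01). At these peaks it had the highest ratio of HG+NT to NG in the group, 1.37 (0.656 to 3.08), with a median of 1.08 on its chromosome. At the HG+NT peak nearest the TSS, 859 nt upstream, the pileup was 4.15 and the ratio 0.846 (0.369 to 2.02). The input means at its summits, 1.6 to 1.70, were the lowest of the group, and its fold percentile was 70.7, 96.5 and 96.5. Its summits lay in the first part of the gene, 627, 2242 and 1082 nt from the TSS, within peaks of 3043, 11570 and 8613 bp.

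*Angptl4*, whose secreted product inhibits lipoprotein lipase, had the lowest mean of the group, with 5.36 in NG, 4.15 in HG+NT and 4.66 under HG+miR-93. The summit lay 1669 nt upstream of the TSS in NG and 1676 nt upstream in HG+miR-93, and 373 nt downstream in HG+NT, where the input mean was 4.0 rather than 2.00. Its fold percentile was 66.9, 7.03 and 64.1, while the ratio of HG+NT to NG was 0.775 (0.344 to 1.8), against 0.850 on chromosome 17.

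Among the receptors, *Nrp1* (ENSMUSG00000025810, chr8:128358604-128503363, plus strand) had the highest mean of the group. Its pileup was 10.3 in NG (23 fragments, 6.51 to 15.4), 8.31 in HG+NT (32 fragments, 5.68 to 11.7) and 6.61 under HG+miR-93 (34 fragments, 4.58 to 9.23). The 3 values descended in that order, with overlapping intervals, but the NG value came from another site than the others. Its summit lay 831 nt upstream of the TSS, and those of HG+NT and HG+miR-93 lay 336 and 513 nt downstream. The ratio of HG+miR-93 to NG was 0.643 (0.368 to 1.14) against a median of 0.995 on chromosome 8. By fold its percentile moved the other way, from 55.8 in NG to 83.3 and 74.8, and the input mean at the summit was 4.80, 3.0 and 2.70.

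*Nrp2* (ENSMUSG00000025969, chr1:62703285-62818695, plus strand) had 6.25 under NG (3.42 to 10.5), 5.71 under HG+NT (3.58 to 8.65) and 7.38 under HG+miR-93 (5.23 to 10.1). Its ratio of HG+miR-93 to HG+NT, 1.29 (0.745 to 2.29), was the highest of the group at the peaks of highest pileup, against a median of 0.952 on chromosome 1. In both HG lists the summits lay 32 bp apart in an exon, 224 and 256 nt downstream of the gene's start, with input means of 1.76 and 1.78. In NG the summit lay 1997 nt upstream, with an input mean of 3.0. Its fold percentile was 45.3, 87.1 and 98.4, and the HG+miR-93 peak had the highest −log10 p of the group's promoters, 3.28.

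*Flt1* and *Kdr*, the receptors of VEGF-A on endothelium, had similar promoter pileups, below the median of all genes in NG and on either side of it in the HG lists. *Flt1* had 4.91, 5.45 and 4.66 in the NG, HG+NT and HG+miR-93 lists, and *Kdr* 4.91, 4.41 and 5.44. For *Flt1* the ratio of HG+miR-93 to HG+NT was 0.855 (0.456 to 1.62) and for *Kdr* 1.23 (0.652 to 2.4), against a median of 0.944 on chromosome 5. *Kdr* had several promoter peaks, and at its strongest by fold the latter ratio rounded to 1.5, just short of the size used for a call below. Their levels lay near the medians of the endothelial, mesangial and podocyte lists and of all genes given above, and single out none of these.

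Within each condition no order among the 10 genes could be told at this depth. Of 45 pairs of genes, 0 had intervals that did not overlap in NG, in HG+NT or in HG+miR-93. *Nrp1* was highest in NG and HG+NT and *Vegfb* and *Nrp2* in HG+miR-93, both at 7.38. The genes whose pileups were most like those of *Vegfa* over the 3 lists were *Arsa*, *Mthfd1l* and *Urgcp*, each with the same 9.38, 7.01 and 7.0, and 485 of the 21834 genes lay within 0.2 on the log2 scale.

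**Figure D2:**
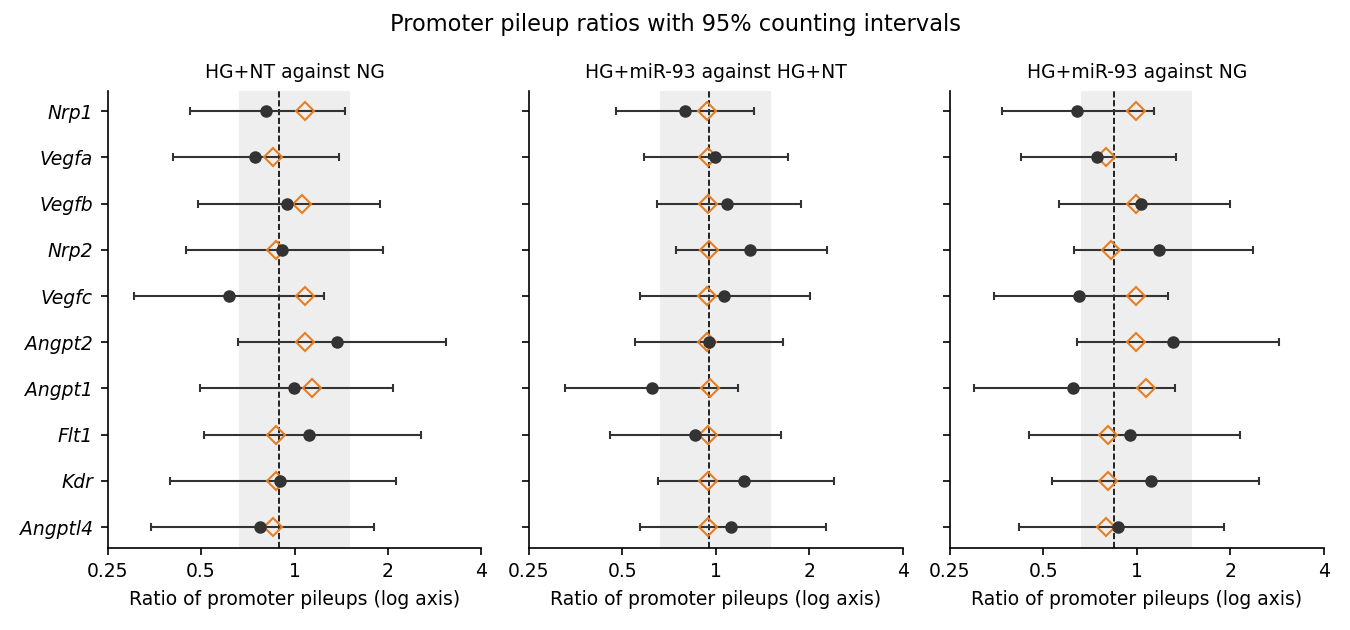
Ratios of promoter pileup on a log axis for the 3 comparisons, as black points with 95% counting intervals; orange diamonds are the median ratio of the gene's chromosome, the dashed line is the median of all genes and the grey band spans 1.5 times lower to 1.5 times higher. Points left of the band are *Vegfc* in the first panel, *Angpt1* in the second, and *Vegfc*, *Angpt1* and *Nrp1* in the third, and every interval crosses 1.

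A difference of at least 1.5 times was used as a call of size, without a test. In HG+NT against NG, 0 of the 10 genes were higher by this rule, against 5.30% of 21834 genes, and 1, *Vegfc*, was lower, against 16.9%. The intervals did not overlap for 0 of the 10 genes and for 1.24% of all. In HG+miR-93 against HG+NT, 0 were higher, against 2.17%, and 1, *Angpt1*, was lower, against 5.67%, with intervals apart for 0 and 0.435%. In HG+miR-93 against NG, 0 were higher, against 4.26%, and 3, *Vegfc*, *Angpt1* and *Nrp1*, were lower, against 22.2%, with intervals apart for 0 and 1.42%. These counts were near the background. The choice of peak mattered for 3 further genes. At the strongest peak by fold, *Kdr* was higher in HG+miR-93 against NG, with a ratio of 1.52. The share of all genes at such peaks is not given here. At the peak nearest the first TSS, *Vegfa* was lower and *Kdr* higher in that comparison, against 24.3% and 8.30% of all genes. The *Kdr* summits there lay 200 nt upstream in NG and 733 nt downstream under HG+miR-93, with a ratio interval of 0.676 to 3.87. By either choice its NG peak held 8 fragments (pileup 3.57, 1.54 to 7.04). *Angpt2* was higher at the peak nearest the first TSS in HG+miR-93 against HG+NT with a ratio of 1.54, against 4.42%. The median ratio was 0.906, 1.03 and 0.910 for the group in the 3 comparisons and 0.894, 0.952 and 0.846 for all genes. Each list enters 2 of the 3 comparisons, so the ratios are not independent of each other. By fold, the percentile of 7, 7 and 6 of the 10 genes was higher in the first list named, with median shifts of 10.4, 12.6 and 18.4 points. Percentiles are ranks over all genes, so a rise in some genes comes with a fall in others. The share of all genes that rose is not given here, so these counts show no rise of the group. Ranked by pileup the counts were 5, 7 and 6, and by fold over the chromosome's median 5, 6 and 6.

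The other genes of the pathway had levels near those of the 10. Of 35 further ligands, receptors, signalling and hypoxia genes, the median pileup was 6.25, 5.97 and 5.64. By the 1.5 times rule 1 was higher and 5 were lower in HG+NT against NG, where 5.30% and 16.9% of all genes were. In HG+miR-93 against HG+NT 0 and 0 were, against 2.17% and 5.67% of all genes, and in HG+miR-93 against NG 2 and 9, against 4.26% and 22.2%. *Ptk2*, which encodes focal adhesion kinase, was the highest in NG with pileups of 15.2, 10.1 and 11.1, followed by the prolyl hydroxylase gene *Egln2* with 13.0, 8.83 and 7.19. Among the low genes were *Flt4*, the receptor gene of VEGF-C, with 3.13, 3.38 and 3.50 and *Pgf*, the gene of placental growth factor, with 3.13, 5.71 and 4.86. *Pgf* was the gene called higher in HG+NT against NG, with a ratio of 1.83, against a median of 0.872 on chromosome 12. *Mapkapk3*, a kinase gene singled out after its values were seen, had 12.5 under NG (8.31 to 18.1), 4.41 under HG+NT (2.57 to 7.07) and 4.28 under HG+miR-93 (2.68 to 6.47), so that its HG intervals lay apart from that of NG.

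The position of the promoter summit varied between the lists. For 0 of the 10 genes did the summits of all 3 lists lie within 150 bp of each other, against 12.5% of 21835 genes, so 0 of 10 is near the background. In *Vegfa* and *Vegfc* all 3 summits lay within 500 nt of a TSS, in *Vegfb* and *Nrp2* 2 did, and in *Angpt1* and *Angpt2* none did. The closest pairs were those of *Angptl4* in NG and HG+miR-93, 7 bp apart, and of *Nrp2* in the HG lists.

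**Figure D3:**
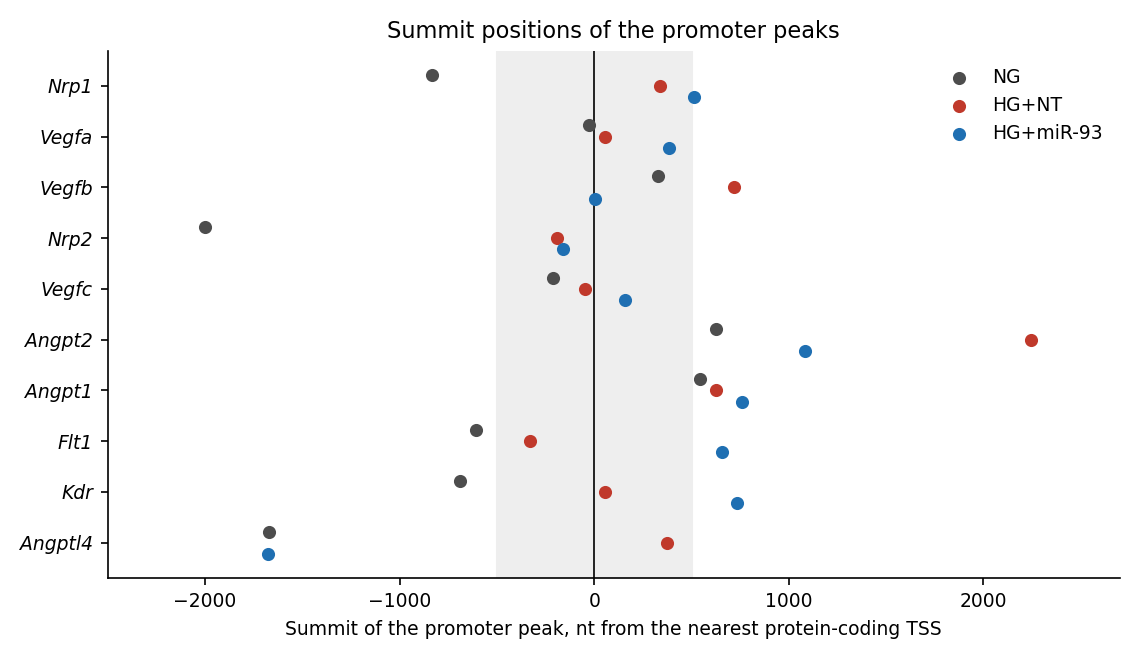
Position of the summit of each gene's promoter peak, in nt from the nearest protein-coding TSS with upstream to the left, coloured by condition; the grey band marks 500 nt on either side. *Angptl4* and *Nrp2* have their NG summits 1669 and 1997 nt upstream, and in *Nrp2* both HG summits lie beside each other near the TSS.

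The input was above its background of 1.43 at the promoter summit of all 10 genes in every list, as at 78.4% to 79.6% of all promoters. Its median at the group's summits was 3.0, 3.0 and 2.70, against 2.60, 2.60 and 2.58 over all genes. Over 16527 genes with a RefSeq promoter, the GC content of the promoter correlated with pileup across genes, with Spearman's rho of 0.54, 0.59 and 0.60, and with the input mean, with rho of 0.38, 0.37 and 0.36. These genes share libraries and are not independent replicates, and the part of base composition in the group's levels was not tested.

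Across the gene bodies the group had 519 peaks in NG, 374 in HG+NT and 425 under HG+miR-93. As the lists cover most of every gene, 74.5% to 95.6% of the length of these 10, the mean pileup of the peaks was compared rather than their number. *Vegfa*, 15377 bp long, had the highest mean in NG and *Vegfb*, 5179 bp long, in both HG lists: *Vegfa* had 4.69, 4.12 and 4.83, and *Vegfb* 4.15, 5.06 and 5.31. The long genes *Angpt1* and *Vegfc* were the lowest in every list. *Angpt1*, 252255 bp long, had 2.72, 2.41 and 2.28, and *Vegfc*, 109491 bp long, had 2.92, 2.5 and 2.37.

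**Figure D4:**
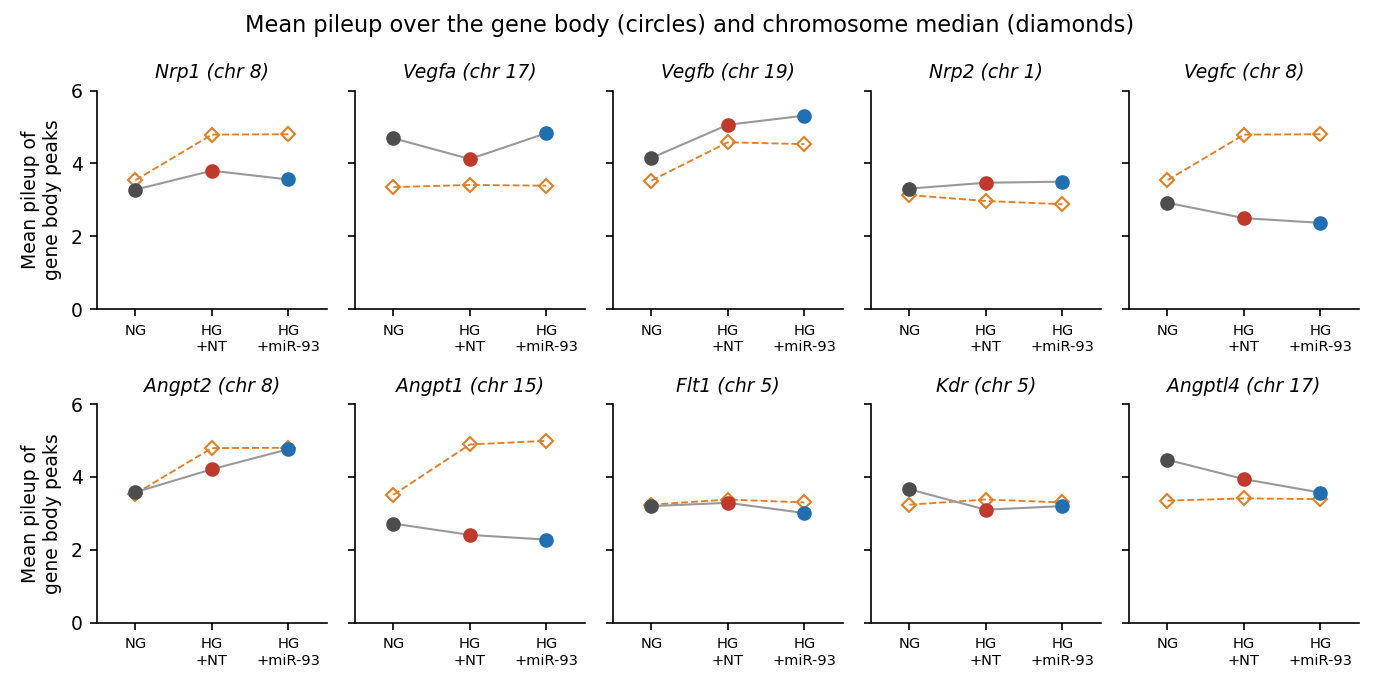
Mean pileup of the peaks over each gene body (circles, fragments scaled to the input) in the 3 conditions, with the median over genes of the same chromosome (open diamonds). On chromosome 8 the median rises from 3.54 in NG to 4.79 and 4.80, *Angpt2* follows it with 3.58, 4.21 and 4.76, and *Vegfc* goes from 2.92 to 2.5 and 2.37.

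*Vegfc* and *Angpt1* stood apart from their chromosomes. The mean body pileup of *Angpt2*, *Nrp1* and *Vegfb* was higher in HG+NT than in NG, by 1.17, 1.16 and 1.22 times, as was that of the median gene of chromosomes 8 and 19, by 1.30 and 1.24 times. That of *Vegfc* was 0.856 times and that of *Angpt1* 0.888 times the NG value, against 1.30 and 1.33 on chromosomes 8 and 15. In HG+NT this placed *Vegfc* at percentile 2.98 of chromosome 8 and *Angpt1* at percentile 1.02 of chromosome 15, from 17.4 and 10.2 in NG. Both bodies are poor in G and C, with 37.2% and 37.5% against a median gene of 45.2%, and lie at percentiles 1.25 and 1.91 of their chromosomes. Genes in the lowest 10% by GC had a median ratio of HG+NT to NG of 1.02 on chromosome 8 (104 genes), of 1.03 on chromosome 15 (78 genes) and of 0.749 on the 16 other autosomes (1819 genes), against 0.939 for all 18249 genes of the latter. The ratios of *Vegfc* and *Angpt1* lay below the median of such genes on their own chromosomes and above that on the 16 other autosomes. The lowest 10% also holds genes of higher GC than these, and the part of base composition was not tested.

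The summit of a gene's highest peak lay more than 500 nt from every TSS in all 3 lists for 4 of the 10 genes, *Angpt1*, *Angpt2*, *Angptl4* and *Nrp1*, and for 34.7% of 21838 genes. These peaks are wide, and only in *Angptl4* was the highest peak outside the promoter, without overlap of its window, in all 3 lists, against 12.6% of genes. In *Angpt2* the pileup was 7.59 in NG at 26321 nt from the TSS (input mean 2.00) and 7.79 in HG+NT at 16648 nt (input mean 1.92), both in introns. In *Nrp1* an intronic site 129135 to 129201 nt from the TSS was the highest of the gene in both HG lists. Its pileup was 8.49 in NG (19 fragments, 5.11 to 13.3), 9.35 in HG+NT (36 fragments, 6.55 to 12.9) and 8.55 under HG+miR-93 (44 fragments, 6.21 to 11.5). The summits lay within 66 bp of each other, and the ratios were 1.10, 0.915 and 1.01, so the levels differed by less than their counting error, as did those of the promoter. The input mean there was 4.0, 4.0 and 5.00, and the fold over input 1.90, 2.07 and 1.59. The 151 bases around the summit overlap no annotated exon, hold no repeat-masked base and are 55.6% G and C. Capitals mark a GGGCGG, as its complement, and a GCGTG.
Nrp1 intron, chr8:128488363-128488513, plus strand, GRCm38.p6: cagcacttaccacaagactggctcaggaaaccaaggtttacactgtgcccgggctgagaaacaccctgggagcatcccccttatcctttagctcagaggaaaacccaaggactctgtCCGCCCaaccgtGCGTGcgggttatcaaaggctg

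**Figure D5:**
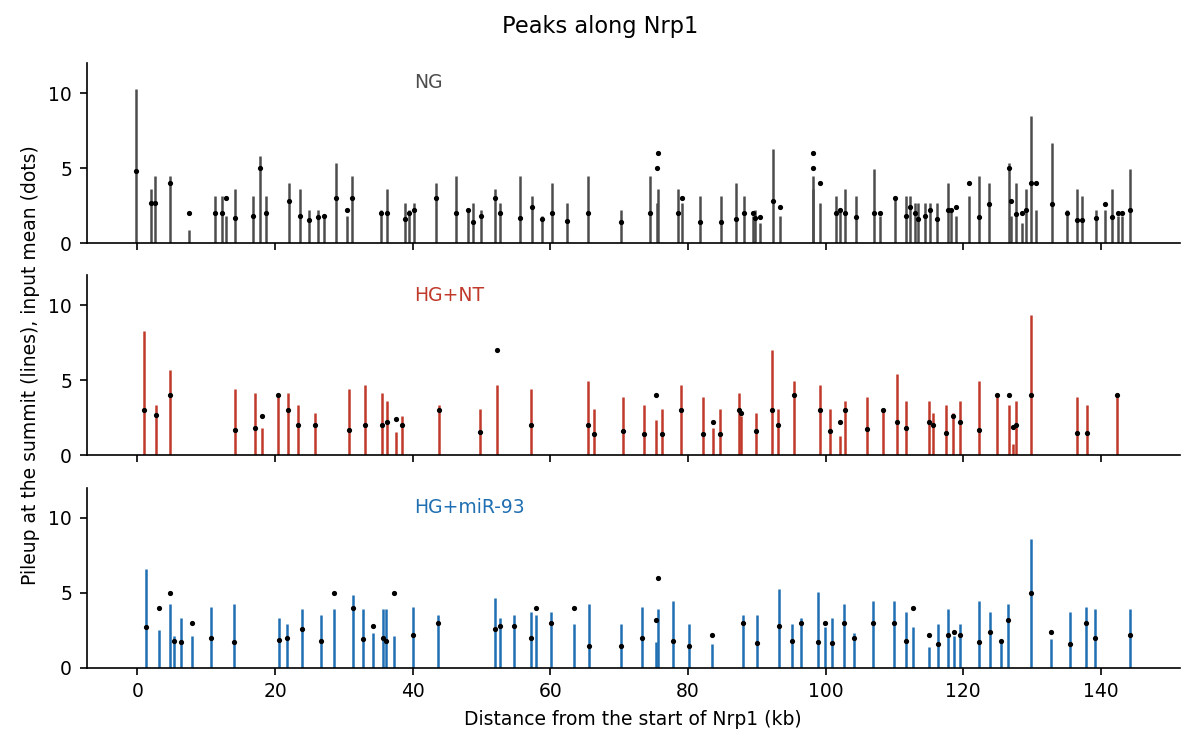
Pileup at the summit of each peak along *Nrp1* (vertical lines) and the input's local mean there (black dots), against the distance from the gene's start in kb, with 1 panel per condition. The promoter is the highest line in NG at 10.3, and the intronic site toward the right end stands at 8.49, 9.35 and 8.55 in the 3 panels.

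Sites found at the same place in all 3 lists were sought in the gene bodies, as summits of the 3 lists that lay within 150 bp of each other. Of 511 summits of the group in NG 51 recurred, 9.98%, against 7.32% of 483014 over all gene bodies. They were frequent in *Vegfc*, 10 of 47, and *Angpt1*, 22 of 127, the AT-rich genes above, and absent in *Vegfa*, *Vegfb* and *Angptl4*, which had 9, 7 and 6 summits. No limit of fold or fragments was set, so a recurrent summit need not be an accessible site. Several in *Vegfc* and *Angpt1* had a fold over input below 1 in all 3 lists. In *Vegfc* the summit 18932 nt from the TSS had 0.452, 0.637 and 0.981, with 1 fragment in NG. In *Angpt1* that at 119866 nt had 0.631, 0.881 and 0.555. In *Nrp1* 6 of 92 recurred, among them 1 in an exon 121601 nt from the TSS with pileups of 4.47, 4.93 and 4.47. *Angpt2* held 1, in an intron 45952 nt from the TSS, with 4.02, 5.19 and 4.66. In *Kdr* a site in an intron, 603 nt from the TSS, had 3.57 in NG, 2.60 in HG+NT and 5.44 under HG+miR-93, with a ratio of 2.10 between the HG lists and intervals of 1.25 to 4.78 and 3.62 to 7.86 that overlapped.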

How the data were processed

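DNase-Seq libraries (2 per condition, 1 input) were, per the authors' methods and processing notes, demultiplexed with CASAVA 1.8.2, trimmed with TrimGalore!, aligned to mm10 with Bowtie, cleared of duplicates and searched for peaks with MACS2 against the input, at published settings for DNase-seq that are cited without their values. The authors deposited 1 list per condition with a ratio (fold over input), a −log10 p, a score that holds −log10 q, and a summit position per peak. Fragments k and input mean λ were solved from fold = (ks + 1)/(λ + 1) and the Poisson p, with the scale s fitted per list and λ at the background or a multiple of 0.02, which left 4, 2 and 0 peaks unsolved. Promoters (500 nt, overlap of 1 bp) were ranked by fold, and levels taken from the peak of highest pileup, with 95% exact binomial intervals for ratios. Named were the 10 genes, up to 4 per list by NG pileup, and the 3 most like *Vegfa*; *Nphs1*, *Pecam1*, *Cdh5*, *Pgf* and *Mapkapk3* were added after seeing values, and some items of these lists are not reported here. Members and lists were chosen with earlier results of these data known, and recurrent summits, seed matches and base composition were added later. Steps were tested on simulated data. The software was Python 3.11.15 with scipy 1.17.1, pandas 2.3.3, matplotlib 3.10.9 and numpy 2.4.6.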

Additional observations from a re-analysis of the deposited data

How the results depend on the processing

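No paired analysis was possible because each condition has 1 list over both replicates, and for the same reason no replicate could be left out. Of 48 alternatives to the counts over the 10 genes 33 stayed near the reported count, and the 156 alternative ratios of single genes all stayed within the counting interval of the reported ratio. The latter is a weak check, because many alternatives keep the same peak and the intervals are wide. Some ratios crossed 1 within them. At the peak nearest the first TSS, HG+NT against NG went from 1.37 to 0.846 in *Angpt2* and from 0.899 to 1.24 in *Kdr*. With a summit required within 500 nt of a TSS, only 2 genes had a peak in every list: the fold percentile was then higher for 0, 2 and 1 of them in HG+NT against NG, HG+miR-93 against HG+NT and HG+miR-93 against NG, and the pileup was called for 0 and 1 in the last 2 comparisons. With a −log10 p of at least 1, 4 genes were left, of which 3 were higher by fold percentile in HG+NT against NG and 3 in HG+miR-93 against HG+NT. With 2 times for a call, 0 genes were called in each comparison. With the pileup divided by the chromosome's median, 1 gene, *Angpt1*, was called in HG+miR-93 against NG instead of 3. With summits within 500 bp, 1 gene, *Angpt1*, had them at 1 position in all lists. With promoters of 1000 nt on either side, 2 genes, *Angpt2* and *Angptl4*, had the summit of their highest peak beyond that window in all lists. With the peak nearest the first TSS, chosen after seeing the data, 2 genes, *Angpt1* and *Angpt2*, were called in HG+miR-93 against HG+NT and 5, *Vegfa*, *Vegfc*, *Angpt1*, *Kdr* and *Nrp1*, in HG+miR-93 against NG. Depth limits these values: a promoter's highest peak rested on 11 to 38 fragments, and 1 lay within the counting interval of every ratio between conditions.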
